A study of Mus musculus with 4 samples.

Results

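Endothelial cells that were in, or close to, mitosis were examined in embryonic mouse heart ventricles profiled by droplet single-cell RNA sequencing. They were chosen by a rule on UMIs, the tags that count single RNA molecules. A barcode needed at least 1000 genes, under 10% mitochondrial UMIs and under 1% of its UMIs from 8 cardiomyocyte genes. It also needed at least 5 UMIs over Cdh5, Pecam1, Emcn, Cd93, Plvap and Kdr with at least 3 of those 6 endothelial genes detected, and at most 1 UMI of Wnt4 and Wnt9b. Last, it needed at least 3 UMIs over Ube2c, Ccnb1 and Cdc20, 3 genes of late G2 and mitosis. The rule selected 1027 cells of 61172 barcodes. They came as 259, 295, 303 and 170 cells from the libraries het 1, het 2, KO 1 and KO 2, and 4 values in a row are given in that order below. The 2272 endothelial cells that met every other part of the rule but had fewer than 3 UMIs of the 3 genes (734, 568, 649 and 321) are called the other endothelial cells.

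Each library held all ventricular cells of hearts collected at E12.5, after tamoxifen at E9.5. The 2 libraries labelled het came from Gata4fl/+;Rosa26mTmG/+;Cdh5(Pac)-CreER+ embryos, with 1 floxed allele of Gata4. The 2 labelled KO came from Gata4fl/fl;Rosa26mTmG/+;Cdh5(Pac)-CreER+ embryos, with 2 floxed alleles. Both groups therefore carried the tamoxifen-inducible Cre under the Cdh5 promoter, which is active in endothelial cells, and the mTmG reporter, which makes EGFP in place of a red protein once Cre has acted, and both received tamoxifen. No group without Cre or without a floxed allele was analysed here. Whether 1 embryo or several went into a library is not in the labels, so a p-value below measures only the spread between these libraries. The selected cells held 4611343 to 11899293 UMIs per library in sum, and their median depth was 10540, 31467, 23358 and 42837.5 UMIs a cell. Library het 1 was the shallowest, and that depth touches every result that rests on a fixed number of UMIs. No barcode of these cells was shared between libraries. Ddx3y, a Y-linked gene, was at 51, 70.6, 38.1 and 0.0 CPM (UMIs of the gene per 1000000 UMIs of the summed cells), and Xist, transcribed from the inactive X chromosome, at 629.1, 291.9, 723.2 and 1041.8 CPM, so sex-linked RNA differed between libraries; its part in the group differences was not tested.

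Entry into mitosis is driven by the kinase Cdk1 bound to a B-type cyclin such as Ccnb1. The anaphase-promoting complex, with its activator Cdc20 and the ubiquitin-conjugating enzyme Ube2c, then marks securin and cyclin B for destruction, which starts anaphase and lets the cell leave mitosis. Genes of this programme are kept silent in resting cells and switched on late in the cycle by the MuvB complex with B-Myb and FoxM1, which act through promoter elements called CHR, often beside CCAAT boxes bound by NF-Y. In the midgestation ventricle the endothelium consists of the endocardium, which lines the chamber, and a growing coronary plexus.

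The promoters of the 3 genes that selected the cells are shown with the letters of these elements marked. CCAAT letters stood in all 3 and CHR letters in 2. Each is the RefSeq window of 300 bases on GRCm38.p6, from 250 bases before to 50 after the transcription start, on the strand of the gene. The positions are chr2:164769679-164769978 on the plus strand for Ube2c, chr13:100786437-100786736 on the minus strand for Ccnb1 and chr4:118437294-118437593 on the minus strand for Cdc20. Capitals mark CHR letters, which are TTTGAA and also TTCGAA, and the CCAAT box. Both strands were searched, so a site on the opposite strand stands as its reverse complement.
Ube2c: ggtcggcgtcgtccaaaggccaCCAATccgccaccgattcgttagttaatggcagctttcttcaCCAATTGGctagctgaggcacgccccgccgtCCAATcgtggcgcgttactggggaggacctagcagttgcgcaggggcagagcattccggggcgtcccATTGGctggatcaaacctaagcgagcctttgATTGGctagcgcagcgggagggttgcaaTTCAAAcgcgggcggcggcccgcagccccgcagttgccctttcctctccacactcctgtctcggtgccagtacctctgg
Ccnb1: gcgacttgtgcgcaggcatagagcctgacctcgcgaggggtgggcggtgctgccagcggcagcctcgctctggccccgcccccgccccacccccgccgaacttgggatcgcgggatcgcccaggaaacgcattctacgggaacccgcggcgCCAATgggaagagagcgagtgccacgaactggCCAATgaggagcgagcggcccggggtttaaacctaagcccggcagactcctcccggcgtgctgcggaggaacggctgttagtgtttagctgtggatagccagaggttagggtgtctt
Cdc20: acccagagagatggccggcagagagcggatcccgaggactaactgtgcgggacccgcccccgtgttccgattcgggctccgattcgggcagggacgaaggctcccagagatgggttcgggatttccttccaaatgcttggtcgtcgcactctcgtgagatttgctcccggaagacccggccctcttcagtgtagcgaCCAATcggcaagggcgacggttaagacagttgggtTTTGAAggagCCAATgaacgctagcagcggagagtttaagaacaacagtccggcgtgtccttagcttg

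In Ube2c the CHR letters began 29 bases before the start, on the opposite strand, beside 6 CCAAT letters, of which a pair overlapped. In Cdc20 the CHR letters began 18 bases before the start, with CCAAT at 53 and 8 bases before it. The Ccnb1 window held CCAAT at 99 and 67 bases before the start and neither spelling of the CHR. Across the 32851 promoters in the table, 5.31% held CHR letters within 50 bases of the start. Among 74 other genes of the G2/M switch, kinetochore, spindle checkpoint, spindle and chromosomal passenger complex, 61 were matched, and 38 of their 68 promoters (55.9%) held them. The share was 75.0% for spindle and cytokinesis genes (18 of 24 promoters) and 4.0% for S phase genes (1 of 25). At least 2 CCAAT stood in 41.2% of the 68 promoters and in 11.7% of all.

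The promoter letters were set beside the levels in the cells as a description. Of 2812 named genes with a promoter in the table and at least 50 CPM in either group of endothelial cells, 5.37% held CHR letters within 50 bases of the start. Among the 93 of these that were at least 2-fold higher in the G2/M cells and higher in all 4 libraries, the share was 46.2%. Within the 61 matched G2/M genes, the 36 with the letters had a median log2 ratio of 2.85 between G2/M and other endothelial cells, and the 25 without them 2.16. A match of letters is not a bound site.

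The label was first set against genes the rule did not use. The 74 G2/M genes outside the rule, summed, stood at 6455.6, 6763, 7740.0 and 6706.8 CPM in the selected cells and at 1766.9, 1231.3, 1490.3 and 1076.8 CPM in the other endothelial cells. Cells with no UMI of the 3 rule genes had 1389, 973, 1195 and 916 CPM of this sum. Cells with 10 or more had 8629, 8679, 9336 and 8902 CPM. The sum was thus higher at each step in every library, as the plot of levels by rule-gene UMIs shows. Just outside the threshold, at 2 UMIs, it was 2638, 1841, 2510.0 and 1563 CPM, and just inside, at 3 UMIs, 3966, 2835, 3563 and 2329 CPM. The threshold therefore cut a continuous range. It also cut it at different places, since 26.3% of selected cells had 10 or more rule-gene UMIs in the shallow het 1 and 50.8, 50.2 and 57.6% in the others. All 3 rule genes were detected in 37.1, 65.8, 64.4 and 71.8% of them.

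**Figure D1:**
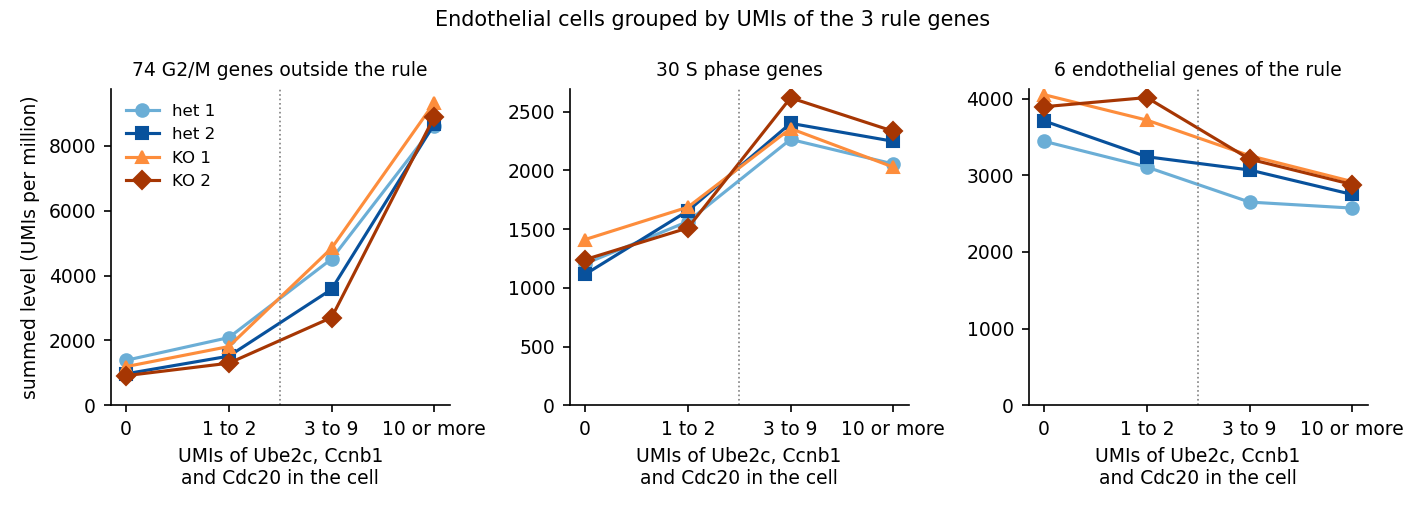
Summed level, in CPM, of 3 gene sets in endothelial cells grouped by their UMIs of Ube2c, Ccnb1 and Cdc20, with 1 line per library; the dotted line is the threshold of 3 UMIs. The G2/M genes outside the rule climb to 8629 to 9336 CPM, S phase genes peak at 3 to 9 UMIs, and the endothelial genes of the rule are lower at 10 or more UMIs than at 0.

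S phase genes had another course across the same cells. Their sum was 1205, 1115, 1412 and 1241 CPM in cells with no rule-gene UMI and 2264, 2401, 2356 and 2618 CPM in cells with 3 to 9. It was 2055, 2248, 2028 and 2334 CPM in cells with 10 or more. The highest values thus lay in cells just past the threshold in each library. Cells with 3 to 9 rule-gene UMIs held 191, 145, 151 and 72 of the selected cells.

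Endothelial identity was set against 15 pan-endothelial genes outside the rule, such as Tek, Erg and Cldn5. They summed to 2927.8, 3082.2, 3142.6 and 3360.3 CPM in the selected cells and to 41.3, 29.7, 42.8 and 19.1 CPM in cardiomyocytes, taken as barcodes with 5% or more of their UMIs from the 8 cardiomyocyte genes. Cdh5, the adhesion molecule of endothelial junctions, is one of the genes that selected the cells, so its detection is a description only. It was seen in 92.3, 96.6, 95.7 and 93.5% of them and in 3.74, 4.50, 3.44 and 2.64% of cardiomyocytes, whose median depth was 5484 to 9024.5 UMIs. With each cell thinned to 3000 UMIs, the shares were 68.1, 76.5, 74.8 and 72.8% in the selected cells and 1.77, 1.11, 1.97 and 0.734% in cardiomyocytes. Selected cells held 1.75 to 2.08 times as many UMIs as the other endothelial cells of their library by the median.

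The share of endothelial cells in G2/M is the share with at least 3 UMIs of the 3 rule genes. It does not count every cycling cell. Mki67, a gene of cycling cells, was seen in 40.3, 27.3, 39.0 and 27.4% of the other endothelial cells. The shares were 26.1, 34.2, 31.8 and 34.6%. Their 95% Wilson intervals ran from 23.4 to 28.9, from 31.1 to 37.4, from 28.9 to 34.9 and from 30.5 to 38.9%. These intervals cover counting error only. Library het 1 was the lowest, and the other 3 overlapped. The mean was 30.1% ± 5.73 in het and 33.2% ± 1.98 in KO (SD, n = 2 each), and the difference of 3.09 percentage points gave p = 0.667 in an exact two-sided permutation test over libraries, whose smallest possible p is 0.333. Thinned to 3000 UMIs a cell, the shares were 8.04, 10.8, 10.9 and 9.52%, with a difference of 0.786 points (exact permutation p = 0.667). Thinning left out 147, 32, 36 and 8 shallower cells. Without het 1 the difference was -0.958 points, and with 1 thinned UMI of the rule genes as the threshold it was -5.79 points, so no direction held over these settings.

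Cardiomyocytes of the same libraries gave a comparison with the other main dividing population of the ventricle. At least 3 UMIs of the 3 rule genes were held by 36.8, 43.2, 33.2 and 40.0% of them, which is above the endothelial share in each library. The endothelial minus cardiomyocyte differences were -10.7, -9.04, -1.41 and -5.34 percentage points, with a mean of -6.62 (exact sign-flip permutation p = 0.125, two-sided, the smallest this design allows). At 3000 UMIs a cell the cardiomyocyte shares were 23.6, 21.3, 22.6 and 21.7%, and the differences were -15.6, -10.4, -11.6 and -12.2 points (exact permutation p = 0.125). The endothelial share was the lower one in 4 of 4 libraries both ways. That order was measured with the 3 rule genes alone. They summed to 629.8, 527, 565.1 and 543.3 CPM over all cardiomyocytes. In the selected cells they summed to 534.1, 595.9, 618.5 and 561.5 CPM and in the other endothelial cells to 71.3, 28.5, 36.4 and 20.7 CPM. The 74 G2/M genes outside the rule summed to 4202.7, 4291.4, 4252.9 and 3860.8 CPM over all cardiomyocytes. That lay below the selected cells and above the other endothelial cells in each library. The selected cells are only a part of the endothelium, so these sums do not compare whole cell types. With single other genes the order depended on the gene. In het 1 at 3000 UMIs a cell, Cenpe was seen in 36.7% of selected, 12.4% of other endothelial cells and 10.4% of cardiomyocytes. For Ccnb2 these shares were 20.7, 9.75 and 21.6%. The endothelial share was thus the higher for Cenpe and the lower for Ccnb2 in that library. The order over a set of other G2/M genes was not tested. With 5 UMIs of the rule genes as the threshold, the mean difference was -4.91 points (exact permutation p = 0.25). The cardiomyocyte class is a range of a score and not a natural group, since 1082, 1000, 1367 and 881 cells lay between 5 and 6% and 1338, 808, 1257 and 654 between 4 and 5%.

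**Figure D2:**
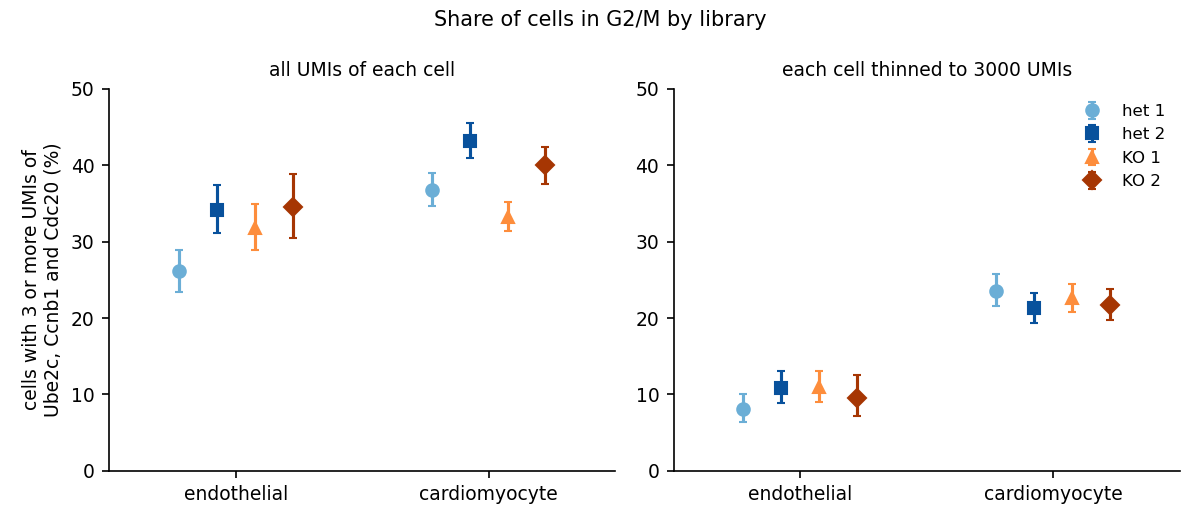
Share of cells in G2/M (percent) by library in endothelial cells and cardiomyocytes, from all UMIs (left) and after thinning each cell to 3000 UMIs (right); bars are 95% Wilson intervals. At equal depth the endothelial shares lie between 8.04 and 10.9% and the cardiomyocyte shares between 21.3 and 23.6%.

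The programme carried by the selected cells is described next against the other endothelial cells, library by library. The rule split these cells on 3 genes of the same programme, so the differences are a description and carry no test. For reading the counts, 21.5% of 11007 genes at 5 CPM or more were higher in the selected cells in all 4 libraries, 36.2% were lower in all 4, and the median log2 ratio over these genes was -0.08. Of 3480 eligible genes at 50 CPM or more, 114 were at least 2-fold higher with the same sign in all 4 libraries and 11 at least 2-fold lower.

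Of the 15 cyclins, kinases and phosphatases of the G2/M switch, 15 were higher in all 4 libraries, with a median log2 ratio of 2.32. Plk1, the polo-like kinase of mitotic entry, was at 82.6, 98.7, 115.9 and 83.6 CPM in the selected cells and at 10.9, 4.55, 6.68 and 2.65 CPM in the others. Ccna2, the cyclin that rises from S phase into G2, was at 113, 115, 146.6 and 126.7 CPM against 27, 8.99, 21.8 and 8.62 CPM. Their groups did not overlap. Cdk1 itself was at 229.9, 270.4, 273.8 and 317.3 CPM against 72.6, 58.2, 71.8 and 60.6 CPM. Wee1 and Pkmyt1, the kinases that hold Cdk1 inactive, had median log2 ratios of 1.09 and 1.11, the lowest of the list beside Cdc25b at 1.12.

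The chromosome-moving machinery stood furthest apart. In the spindle and cytokinesis list, 25 of 25 genes were higher in all 4 libraries with a median log2 ratio of 3.0. Hmmr, a spindle-assembly protein, was at 119.9, 154, 183.5 and 152.1 CPM in the selected cells and 16.4, 7.71, 12.6 and 4.25 CPM in the others. Prc1, which bundles the microtubules of the central spindle, was at 271.3, 273.1, 341.3 and 289.2 CPM against 38.9, 19.9, 31.5 and 13.5 CPM. For both genes the lowest value of the selected cells lay above the highest of the others. The 4 measured members of the chromosomal passenger complex (Aurkb, Incenp, Birc5 and Cdca8), which corrects wrong attachments and later guides cytokinesis, were higher in all 4 libraries with log2 ratios between 2.73 and 3.12.

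Kinetochore and centromere genes were higher in 20 of 21 cases, with a median log2 ratio of 1.85 and a wide range inside the list. Cenpf and Cenpe, outer kinetochore proteins made late in the cycle, had log2 ratios of 4.08 and 3.55. Zwint, at 115.8, 115.7, 123.2 and 126 CPM against 102.5, 107.2, 105.1 and 107.5 CPM, had 0.20, and Cenpt, part of the constitutive centromere network, -0.11. All 9 spindle checkpoint genes were higher in all 4 libraries (median 2.18), from Bub1b at 3.45 to Mad1l1 at 0.67. The condensin, cohesin and related list was higher in 17 of 17 (median 1.58). Within it Top2a, which untangles sister chromatids, had 3.32 and Mki67 3.22, while the cohesin subunits Stag1 and Stag2 had 0.14 and 0.13.

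The list of the anaphase-promoting complex held subunits together with regulators and a substrate, and it was mixed. Of its 17 genes, 10 were higher and 3 lower in all 4 libraries, with a median log2 ratio of 0.08. The scaffold subunit Anapc1 was at 90.6, 70.0, 102.3 and 72.7 CPM in the selected cells and 88.6, 68.1, 99.1 and 67.4 CPM in the others, and Cdc16 was at 95.6, 100.1, 90.2 and 106.2 CPM against 100.6, 112.3, 111.2 and 119 CPM. Those levels nearly coincided. Within the same list and its counts, Pttg1, the securin that the complex destroys, had a log2 ratio of 2.38 and Fbxo5, its inhibitor, 2.0. The substrate-handling enzyme Ube2c, used by the rule and outside this list, had 4.37.

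Among the regulators of G2/M transcription, 10 of 12 were higher in all 4 libraries, with a median of 0.58. Foxm1 was at 33.6, 22.9, 37.9 and 22.3 CPM against 8.15, 2.57, 5.83 and 3.98 CPM, a log2 ratio of 2.37. Mybl2, which encodes B-Myb, had 1.5. The NF-Y subunits Nfya, Nfyb and Nfyc had -0.08, 0.56 and 0.45, and the MuvB subunit Rbbp4 0.19. Foxm1 and Mybl2 thus stood further apart than these 4 genes. Of 30 S phase genes 23 were higher in all 4 (median 0.69), led by Tk1 at 1.99 and Rrm2 at 1.70, while the helicase subunits Mcm2, Mcm4 and Mcm6 had 0.16, 0.13 and 0.19.

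Inhibitors of the cycle divided. Cdkn1c (p57), a Cdk inhibitor that was abundant here, was at 1902, 3023.1, 2108 and 4005.5 CPM in the selected cells and 3385.8, 3850.9, 3757 and 4698.3 CPM in the others, lower in each library. Cdkn1a (p21) had a log2 ratio of -0.57 and the antiproliferative gene Btg1 -0.52. Cdkn2c (p18) went the other way, at 20.2, 15, 17.5 and 16.7 CPM against 6.0, 2.77, 5.83 and 3.05 CPM, a ratio of 1.84. Mxd4, a repressor of Myc target genes, was at 100.8, 100.7, 78.8 and 95.4 CPM against 198.9, 233, 171.5 and 171.5 CPM.

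**Figure D3:**
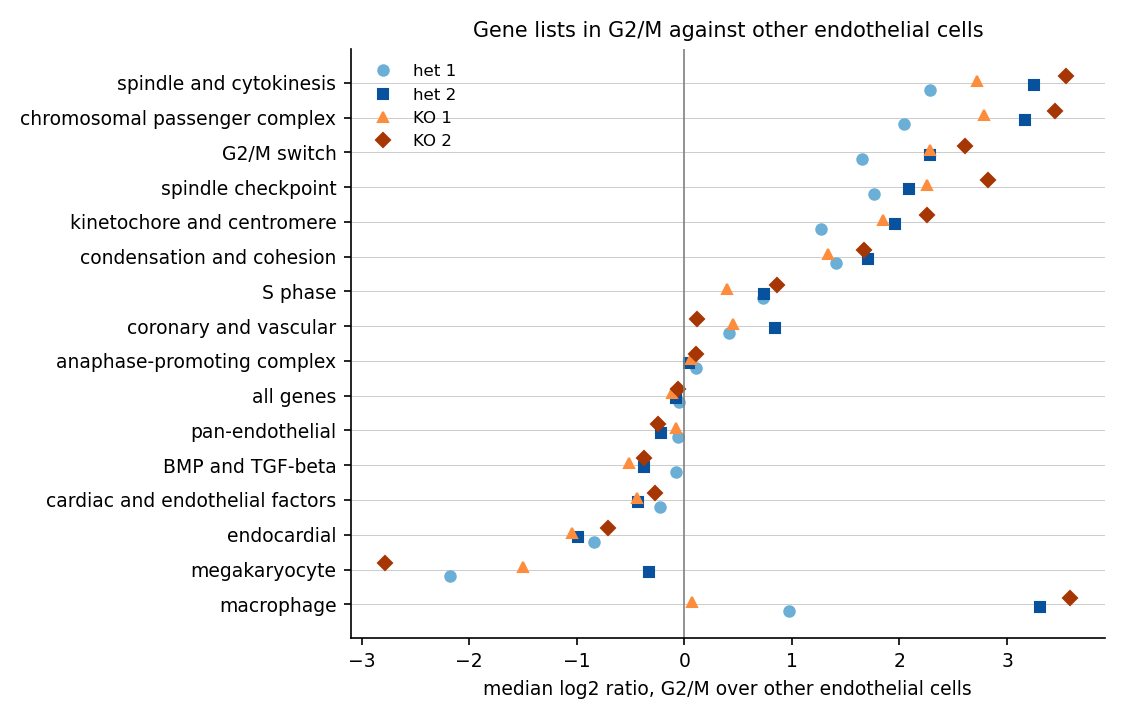
Median log2 ratio of each gene list, selected G2/M cells over other endothelial cells, with 1 symbol per library. The spindle list reaches 2.28 to 3.55, the anaphase-promoting complex stays between 0.04 and 0.11, and endocardial genes lie between -1.04 and -0.71; the macrophage and megakaryocyte lists spread widely between libraries.

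Endothelial identity genes differed between the selected and other cells as well. Endocardial genes were lower in all 4 libraries in 8 of 10 cases and higher in none, with a median log2 ratio of -0.93. Npr3, a natriuretic peptide clearance receptor that marks endocardium, was at 257, 209.3, 466 and 342.2 CPM in the selected cells and 570.2, 439.6, 877.9 and 584.2 CPM in the others. Coronary and vascular genes were higher in all 4 libraries in 5 of 10 cases and lower in 3, with a median of 0.53. Fabp4, a fatty acid binding protein of capillary endothelium, was at 385.6, 592, 787.6 and 425.5 CPM against 216.9, 194.6, 258.8 and 272.5 CPM. Apln, the apelin ligand of sprouting vessels, was at 33.8, 34, 56.8 and 38.3 CPM against 14.4, 15.7, 13.3 and 12.6 CPM. Neither gene overlapped between the selected and the other cells. Both are among the 5 higher genes of this mixed list, and the 3 lower genes are not shown.

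Cells with more vascular than endocardial UMIs made up 29.0, 29.8, 24.4 and 24.7% of the selected cells and 11.9, 10.0, 11.9 and 14.0% of the others. The higher share was in the selected cells of each library. Depth differs between the 2 kinds of cell, and its part in this share was not tested. The pan-endothelial genes stayed closer together. Of 15, 2 were higher and 8 lower in all 4 libraries, with a median of -0.14. Tek and Tie1, receptors of the angiopoietin system, had -0.68 and -0.58, Fli1 0.18 and Cldn5, a tight junction protein, 0.57.

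**Figure D4:**
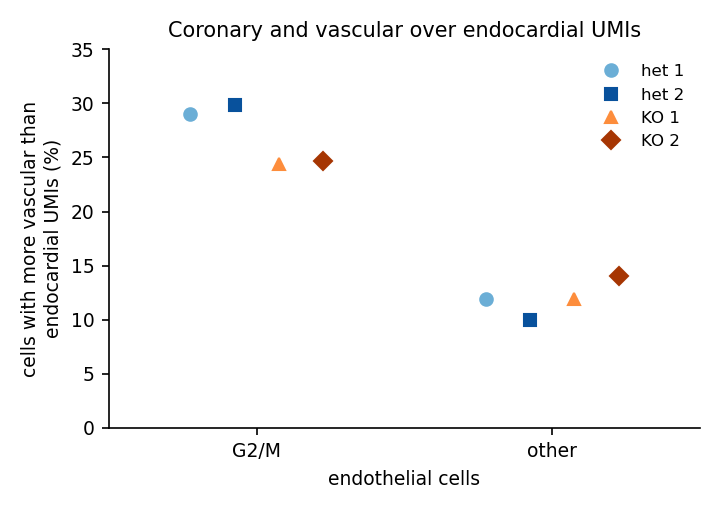
Percent of cells with more UMIs of the coronary and vascular list than of the endocardial list, in G2/M and other endothelial cells, 1 symbol per library. The G2/M cells lie between 24.4 and 29.8% and the others between 10.0 and 14.0%.

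RNA of other cell types was present. Macrophage genes summed to 275.8, 227, 183.5 and 401.9 CPM in the selected cells and 110.3, 15.2, 171 and 28.8 CPM in the others, with 2 of 6 higher in all 4 libraries. Mrc1, Csf1r and C1qa, defining macrophage genes, were above 0 in each library. Erythroid genes summed to 48429.3, 17849.1, 55473.9 and 2292.7 CPM and cardiomyocyte genes to 2482.1, 966.2, 1713.1 and 549.7 CPM against 66450 to 73194 CPM in cardiomyocytes. Megakaryocyte genes summed to 75.5, 34.9, 185.5 and 132 CPM against 550.9, 27.6, 538.6 and 974.9 CPM in the other endothelial cells. Scrublet called 32 of the selected cells doublets (2, 6, 21 and 3), at a score cut-off that its automatic choice gave in het 2 alone and that was set after the scores were seen. The part of these cells in the ratios above was not tested.

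The targeted gene came first in the comparison of the groups. Gata4 (ENSMUSG00000021944.15, chromosome 14, 63198922 to 63271692, minus strand, GRCm38), a zinc-finger factor of heart development, was at 100.2, 69.8, 125.4 and 122.8 CPM in the selected cells. Both KO-labelled libraries were above both het-labelled ones. The log2 difference was 0.54 (SE 0.187, edgeR adjusted p = 1.0). The counts come from 3′ ends, and neither the labels nor the files say which exons the floxed allele loses, so this level does not check the labels and each direction below is that of the libraries as labelled. The added sequence FloxGata4 had 0 UMIs, which allows at most 0.651, 0.252, 0.341 and 0.347 CPM, and FloxGata4_ctrl had 5, 13, 33 and 10 UMIs. What these 2 sequences hold is not given in the sources used here.

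The reporter showed Cre activity in both groups. EGFP was at 1712.5, 3446.1, 2103.8 and 2786.1 CPM in the selected cells and at 46.8, 54.4, 46.3 and 29.1 CPM in cardiomyocytes. An EGFP UMI was seen in 96.5, 98.3, 92.4 and 96.5% of the selected cells and in 23.5, 38.6, 24.9 and 25.7% of cardiomyocytes. At 3000 UMIs a cell these shares were 88.8, 88.7, 81.5 and 82.2% and 10.8, 13, 12.6 and 8.81%. The share in the selected cells was 97.4% ± 1.26 in het and 94.4% ± 2.87 in KO (SD, n = 2 each), a difference of -2.98 points (exact permutation p = 0.333, the smallest possible), and -6.94 points after thinning (exact permutation p = 0.333). dsRed, an added sequence named for a red fluorescent protein, was at 99.5, 112.1, 129.4 and 105.3 CPM, below the 190.1, 332.8, 177.3 and 233 CPM of cardiomyocytes.

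KO-labelled and het-labelled libraries were then compared within the selected cells on UMIs summed per library, which asks whether deletion in the endothelium altered dividing cells. Of 13909 genes tested in edgeR, 0 passed an adjusted p of 0.05, a share of 0.0%, and 320 had an unadjusted p under 0.05. DESeq2 called 8 genes and limma-voom 0. Both KO-labelled libraries lay above both het-labelled ones for 14.2% of the genes tested and below for 10.0%. The lowest adjusted p was 0.507, so the genes below are given by value.

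The 3 rule genes are set by the selection and are given as a description. Ube2c was at 352.8, 369.3, 397.9 and 349.8 CPM, Ccnb1 at 87.2, 93.3, 109.9 and 88.8 CPM and Cdc20 at 94.1, 133.3, 110.7 and 122.9 CPM, with overlap between the groups for each. Of the 74 G2/M genes outside the rule, 0 were called, 64 had a log2 difference above 0 and the median was 0.10, beside 6970 of 13909 and a median of 0.00 over all genes tested. KO 1 carried that excess: without it, 33 of 74 lay above 0 and the median was -0.02. Top2a was at 598.1, 588.7, 798.4 and 589.3 CPM and Mki67 at 621.3, 539.9, 864.1 and 523.9 CPM, with KO 1 the highest and KO 2 level with the het-labelled libraries. The gene of lowest p in the list was Aurkb, the passenger complex kinase, at 69.4, 75.5, 93.9 and 89.1 CPM (log2 difference 0.32, SE 0.145, edgeR adjusted p = 1.0). Among anaphase-promoting complex genes Ube2s, which extends ubiquitin chains on its substrates, was at 27.5, 26, 37.4 and 46.3 CPM and did not overlap (log2 difference 0.63, SE 0.192, edgeR adjusted p = 1.0). The 30 S phase genes split 15 above and 15 below 0, with a median of 0.01, and that split depended on the library. Without KO 1, 22 lay above 0 (median 0.11), without KO 2 only 7 (-0.11), without het 1 only 10 (-0.09) and without het 2 22 (0.07).

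The genes of lowest p in which both KO-labelled libraries were higher were Vwf, Neil2, Fermt3, Pf4, Sost, Bmp6, Plek, Acvrl1, Thsd7a and Slc22a23. Lack of overlap between the groups was a condition for naming them. It was met in this direction by 705 eligible genes at a mean of 20 CPM or more. Of all 13909 genes tested, a wider set, 14.2% met it. Vwf, which encodes a clotting factor stored by endothelium (chromosome 6, 125546774 to 125686679, plus strand), was at 22.1, 32.6, 92.6 and 116 CPM. Every KO-labelled value was more than 2-fold above every het-labelled one, and the log2 difference was 1.89 (SE 0.236, edgeR adjusted p = 0.507). A Vwf UMI was seen in 50, 126, 169 and 104 cells. Neil2, which encodes an enzyme that removes damaged DNA bases and lies next to Gata4 on chromosome 14 (63182443 to 63193856, minus strand), was at 13.2, 9.16, 37.7 and 31.7 CPM (log2 difference 1.65, SE 0.230, edgeR adjusted p = 0.507). Both genes passed the threshold in DESeq2 (adjusted p = 2.76e-08 and 0.000689) and with the replicate number as a block, and neither did in limma-voom. They also passed with no filter on low counts, a fit that called 158 genes. Over 15 alternatives the log2 difference of Vwf ran from 1.64 to 2.25 and that of Neil2 from 1.4 to 1.88. The highest adjusted p among these alternatives was 0.78 for Vwf and 1.0 for Neil2.

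Pf4, a chemokine of platelets and megakaryocytes, was at 62.2, 29.2, 144.2 and 122 CPM (log2 difference 1.56, SE 0.315, edgeR adjusted p = 1.0). With the cells that had at least 0.05% of their UMIs from blood-lineage genes left out, an alternative added after the data were seen, its log2 difference was -0.06. Pf4 is among the genes that chose the cells to leave out, so that drop is partly fixed by the choice. Plek, a platelet signalling protein, and Fermt3, a blood-cell integrin activator, are not among them. They are blood-cell genes all the same, so their values are not independent of the choice either. The log2 difference of Plek was 1.13 with these cells and 0.31 without, and that of Fermt3 1.33 and 1.05. The part of blood cells in these differences was not tested. Vwf was at 1.89 with and 1.91 without these cells, and Neil2 at 1.65 both ways.

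Members of the BMP system stood among the same genes. Bmp6, a ligand, was at 14.3, 15.7, 26.2 and 33.9 CPM, and Acvrl1, an endothelial receptor for BMP9 and BMP10, at 13.4, 16.1, 26.4 and 30.7 CPM. Their log2 differences were 0.98 (SE 0.217) and 0.92 (SE 0.209). Smad6 and Smad7, inhibitory Smads, were at 73.9, 49.4, 108 and 92.6 CPM and at 160.3, 164.7, 226.5 and 212.5 CPM. Eng, the co-receptor, was at 473, 527.3, 612.6 and 754.2 CPM, and Bmp2 at 10.6, 11.8, 6.83 and 7.18 CPM. Of the 21 genes of the BMP and TGF-beta list, 0 were called by edgeR, 5 had an unadjusted p under 0.05, and 6 lay higher and 3 lower in both KO-labelled libraries. Over all 13909 genes tested, 320 had such a p, and 14.2% lay higher and 10.0% lower in both. The median log2 difference of the list was 0.02. Sost, a secreted Wnt and BMP antagonist, was at 22.8, 25, 42.1 and 50.6 CPM.

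Genes lower in both KO-labelled libraries differed by less. Col14a1, a collagen of fibril surfaces, was at 52, 43.4, 27.2 and 28.7 CPM (log2 difference -0.78, SE 0.176, edgeR adjusted p = 1.0). Palmd, a paralemmin family protein, was at 71.8, 66.1, 42.2 and 45.7 CPM, and Bace2, a membrane protease, at 72.4, 73.9, 40.2 and 52.8 CPM. Asb4, a vascular ubiquitin ligase adaptor, was at 79.2, 101.8, 61.5 and 49.6 CPM. Het-labelled values above the KO-labelled ones were a condition for naming these genes. It was met by 580 eligible genes at a mean of 20 CPM or more, and by 10.0% of all 13909 genes tested, a wider set. Nfix, Bin1, Slc9a3r2, Hcfc1r1, Tsc22d3 and Septin1 completed the 10, with log2 differences from -0.64 to -0.54.

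**Figure D5:**
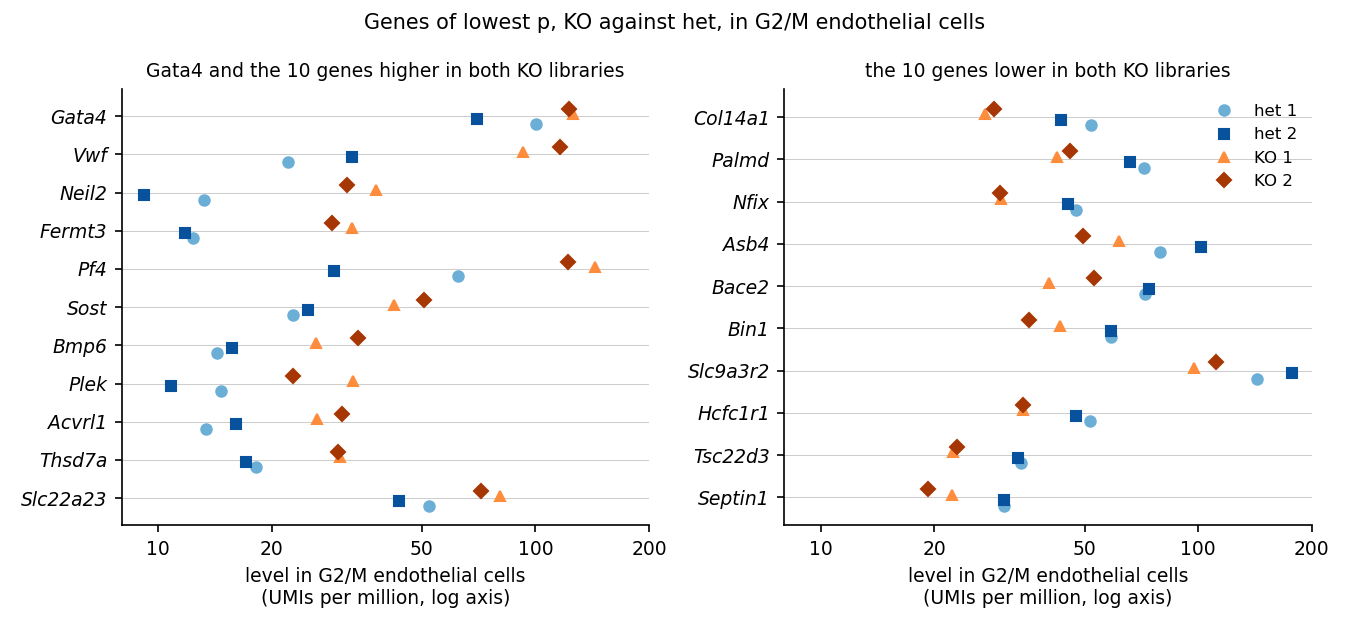
Level per library, in CPM on a log axis, of Gata4 and of the 10 genes per direction with the lowest p between KO-labelled and het-labelled libraries in G2/M endothelial cells. The 10 genes per direction were chosen so that circles and squares (het) do not overlap triangles and diamonds (KO). Vwf runs from 22.1 to 116 CPM and 0 genes passed the adjusted threshold.

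Other lists fixed for these cells gave no called gene. Of 10 endocardial genes tested, 9 had a log2 difference above 0 (median 0.19), and 4 lay higher in both KO-labelled libraries. Over all 13909 genes tested, 6970 lay above 0 and 14.2% lay higher in both. Without het 2, 6 of the 10 lay above 0 (median 0.13), without het 1 and without KO 2 8 (0.47 and 0.18), and without KO 1 10 (0.27). Beside Vwf, already named above, the ones of lowest p were Npr3, with 0.78 (SE 0.202), and the adhesion receptor gene Adgrg6, with 0.60 (SE 0.165). In the Notch list 6 of 15 lay above 0, and 2 lay higher and 4 lower in both KO-labelled libraries. Its target Hey1 was at 10.4, 14, 21.4 and 24.1 CPM, higher in both KO-labelled libraries, and Heyl at 7.59, 4.12, 2.16 and 2.55 CPM, lower in both. Among 27 cardiac and endothelial transcription factors 14 lay above 0, and 7 lay higher and 6 lower in both KO-labelled libraries. Of all genes tested, 14.2% lay higher and 10.0% lower in both. Gata6, on the higher side, was at 144.2, 139.7, 184 and 210.9 CPM. Of the 17 angiogenesis genes tested 14 lay above 0 (median 0.11), with Vegfa at 18.9, 14.3, 30.8 and 22.2 CPM. Without KO 1, 8 of 18 lay above 0 and the median was -0.04, and without KO 2 and without het 1 it was 0.34 and 0.23.

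The same comparison in the other endothelial cells used the same 4 libraries. Of 14149 genes, 1 passed in edgeR (0.00707%), S100a9, a calcium-binding protein of neutrophils, at 0.714, 0.593, 87.8 and 55.5 CPM (adjusted p = 0.0061). Its UMIs there came from 5, 6, 8 and 18 cells. Vwf was at 65.7, 69, 239.9 and 246.6 CPM in these cells, a log2 difference of 1.83 beside 1.89 in the selected cells, and Neil2 at 14.9, 16.2, 74 and 54.3 CPM, 2.02 beside 1.65. For Acvrl1 the values were 1.58 and 0.92, and for Gata4, at 119.2, 101.5, 202.3 and 193.8 CPM, they were 0.83 and 0.54. In the other cells, 8 of the 74 G2/M genes had a log2 difference above 0, with a median of -0.31; het 1, the shallowest library, held the highest sum of these genes there, 1766.9 CPM against 1231.3, 1490.3 and 1076.8 CPM. The part of depth in that median was not tested.

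Whether the KO-against-het difference itself differed between the selected and the other cells was tested with the library as a block. Of 14771 genes, 2 passed in edgeR (0.0135%), Stfa1 and Cstdc5, stefin-type protease inhibitor genes whose UMIs came from at most 8 selected cells in any library. Both calls were lost with Scrublet's doublets left out. No G2/M gene passed. Of the genes at 20 CPM or more, Id1, a target of BMP signalling, was among those of lowest p, at 162.4, 176.4, 174.3 and 234.7 CPM in the selected cells and 143.2, 186.2, 247 and 330.2 CPM in the others. Its KO-against-het difference was 0.54 lower on the log2 scale in the selected cells (-0.54, SE 0.1, edgeR adjusted p = 1.0). Ccne2, a cyclin of S phase entry, had -0.75 (SE 0.179), and Smc4, a condensin core subunit, 0.55 (SE 0.141). Smc4 was at 359.1, 374.2, 402.2 and 352.7 CPM in the selected cells. In the others it was at 234.6, 198.7, 184.3 and 123.1 CPM, highest in the shallow het 1. The cells were split on the cell cycle at a place that depended on depth, and its part in both values was not tested. Car2, an erythroid and vascular carbonic anhydrase, had 1.17 (SE 0.178, adjusted p = 0.44) and was at 62.5, 20.5, 143.5 and 26 CPM in the selected cells, highest in KO 1, where erythroid genes were also highest; their part in this value was not tested.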

How the data were processed

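UMI counts were analysed as deposited, as 1 gene-by-barcode matrix per library. Per the file headers the matrices were written by Cell Ranger 6.0.1. Per the submitters' processing notes, mm10, Cell Ranger and Seurat were used. The labels' protocols name both a 3′ v2 and a Next GEM kit. Of 55405 rows, 4 were added sequences. Members and gene lists were chosen with earlier results of these data known.

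Cells were selected on raw UMIs, summed per library, and tested in edgeR 4.0.16 by the quasi-likelihood test (filterByExpr with at least 10 counts, TMM, Benjamini-Hochberg over all genes, 0.05), checked on simulated data. CPM are plain, without TMM. Shares were compared by exact permutation over libraries. Thinning drew 3000 UMIs a cell without replacement. Log2 ratios between cell groups used a pseudocount of 1 CPM and are medians over the 4 libraries. Named genes were those of lowest p at a mean of at least 20 CPM without overlap of the groups, up to 10 per direction, those of most extreme ratio at 50 CPM, 5 per direction of lowest interaction p, and list members. Genes of globins, ribosomes or mitochondria, and models without a name, could not be named. DESeq2 1.42.0 and limma 3.58.1 were alternatives. Doublets were scored with Scrublet in scanpy 1.11.5 and left in. Promoters were matched by symbol to RefSeq (GRCm38.p6). Cells with more than 1 UMI of Wnt4 and Wnt9b (103, 281, 148 and 96) were left out by the rule. A gene among the blood-lineage genes is not reported here.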

Additional observations from a re-analysis of the deposited data

Results flagged for a closer look

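The difference between KO-labelled and het-labelled libraries differed between the G2/M and the other endothelial cells for 2 genes, by the test of that difference in edgeR. Stfa1 had an interaction of -11.13 on the log2 scale (SE 0.598, adjusted p = 0.0349), and Cstdc5 -10.41 (SE 0.926, adjusted p = 0.0349). Both are stefin-type genes known from neutrophils. In the G2/M cells Stfa1 had 0, 349, 0 and 9 UMIs in 0, 8, 0 and 8 cells (het 1, het 2, KO 1, KO 2), and in the other endothelial cells 0, 2, 0 and 133 UMIs in 0, 2, 0 and 11 cells. Cstdc5 had 2, 436, 4 and 7 UMIs in 2, 5, 4 and 7 G2/M cells, and 3, 4, 73 and 221 UMIs in 3, 4, 2 and 10 other cells. With groups at or near 0 the fitted size depends on the prior count and is no bound. DESeq2 called 0 genes in this test. In edgeR, 0 were called without the doublets, without het 2 or without KO 2, and 1 was called without the cells that carried blood-lineage UMIs.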

How the results depend on the processing

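The share of endothelial cells in G2/M, KO minus het, was 3.09 percentage points and turned to -5.79 when cells were thinned to 3000 UMIs with a threshold of 1 UMI, and to -0.958 without het 1, the shallowest library; with 1 library left out it ran from -0.958 to 7.14. Genes called between the groups in the G2/M cells numbered 0, and 158 with no filter on low counts, 8 in DESeq2 and 128 to 154 when 1 library was left out; in those fits the lone sample of a group is assumed to vary like the other group. In the other endothelial cells 1 gene was called, 2 without TMM, 200 with no filter, 24 in DESeq2, 0 in limma-voom, 0 when selected cells needed only 2 UMIs of the rule genes, 3 under a cardiomyocyte limit of 0.5%, and 4 to 55 with 1 library left out. In the test of the difference between the 2 kinds of cell 2 were called, 106 with no filter, 0 in DESeq2, 1 at 2 UMIs, 0 without doublets, 1 without cells carrying blood-lineage UMIs, and 0 to 7 with 1 library left out. The cause of these moves was not tested. With the replicate number as a block, 25 genes were called in the G2/M cells (16 higher, 9 lower) and 382 in the others, and the share differed by 3.09 points. Deviations of same-numbered samples correlated at 0.378 in the G2/M and 0.535 in the other cells, over 2 pairs, and the labels do not say what a number marks. For single genes in the G2/M cells, the log2 difference changed sign for the following, with the highest value from leaving out 1 library given as an upper end: EGFP (0.01 in limma-voom, 0.53 without het 2, 0.10 without KO 1; -0.54 to 0.53 with 1 library left out), dsRed (-0.01 without KO 1; up to 0.25), Ube2c (-0.03 without het 1, -0.05 without KO 1; up to 0.11), Ccnb1 (-0.03 without KO 1; up to 0.25), Cdc20 (-0.23 without het 1, -0.08 without KO 2; up to 0.33), Cdh5 (-0.02 under the 0.5% limit, -0.03 without het 1 and without KO 1; up to 0.09), Emcn (-0.02 without KO 2; up to 0.61), Cd93 (-0.0 under the 0.5% limit, -0.06 without het 1, -0.01 without KO 1; up to 0.11), Plvap (-0.11 without het 1 and without KO 2; up to 0.33), Kdr (-0.04 without KO 1; up to 0.34) and Pf4 (-0.06 without blood-lineage cells). Over 35 named genes and 522 alternatives, 452 kept direction and side of the threshold, 50 passed it and 20 changed sign. Leaving out blood-lineage cells or globin genes was chosen after seeing the data. Genes with few UMIs in het 1 are limited by its depth.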
